A study of Mus musculus with 8 samples.

Results

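The 10 genes that flank Mef2c on mouse chromosome 13 were followed through 8 RNA libraries, to ask whether an effect at the Mef2c locus reached the genes around it. They were taken by symbol and by position around Mef2c, with earlier results of these data known. All 10 were found in both sets of tables, among 21069 genes listed at day 5 and 19011 listed at day 0. In order along the chromosome they are Nr2f1, Arrdc3, Adgrv1, Lysmd3, Polr3g, Mblac2 and Cetn3 on one side of Mef2c, and Tmem161b, Ccnh and Rasa1 on the other.

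Mef2c encodes a MADS-box transcription factor needed in muscle, heart, neural crest and neurons, and loss of 1 copy of the human gene is a known cause of intellectual disability. Genes on one stretch of chromosome can share enhancers or a chromatin domain, so that removing an element there may alter several of them. Their products can still have unrelated jobs, and most of these 10 do.

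The cells were 46C, a mouse embryonic stem cell line with a fluorescent reporter at Sox1, labelled C57BL/6. The groups at each of day 5 and day 0 were LincNDIME_KO, a line that lacks the long non-coding RNA NDIME (KO below), with wild-type 46C (WT), and cells labelled shMef2c, a hairpin against Mef2c, with the control hairpin shCtrl. Day 5 cells had been reaggregated in suspension in serum-replacement medium and are labelled neural progenitors, whereas day 0 cells were labelled as stem cells and grown with leukemia inhibitory factor on irradiated mouse fibroblasts, so fibroblast markers were also read. Each of the 8 groups was 1 library, so no difference below has a replicate check and no test between conditions was possible. The labels do not say how many clones the KO line represents. Where NDIME lies was not given in the sources used here, and no feature of that name was matched.

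Libraries held 25996204 to 26834802 assigned reads at day 5 and 20312032 to 20883674 at day 0. Levels are the deposited FPKM at day 5 and RPKM at day 0, both scaled for transcript length and library depth, and the days were normalised separately. A gene entered a comparison where its mean over the pair was 1 or more, and a difference was counted from 2-fold on the log2(value + 1) scale, which understates the change of low genes. Beside each difference is the ratio of read shares, a gene's part of all assigned reads, with an exact 95% interval for counting error only; a read share itself is given in RPM, which scales reads to library size. Such intervals excluded 1 for 8 of the 10 genes even between the day 5 controls shCtrl and WT, so this control pair served as the yardstick.

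Mef2c itself, read before its neighbours, was low everywhere. At day 5 it stood at 0.10 FPKM in KO (17 reads) and 0.45 FPKM in WT (77 reads), a read-share ratio of 0.224 (0.124 to 0.382). In the hairpin pair it stood at 0.12 FPKM in shMef2c (20 reads) and 0.50 FPKM in shCtrl (82 reads), a ratio of 0.238 (0.138 to 0.392). Both perturbed libraries therefore lay below both controls, whose own ratio was 1.10 for shCtrl over WT (0.796 to 1.52). At day 0 the library labelled shMef2c went against its label, with 0.37 RPKM (44 reads) against 0.16 RPKM in shCtrl (20 reads), a ratio of 2.21 (1.27 to 3.95). KO and WT held 0.24 and 0.23 RPKM at day 0.

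The promoters of 4 genes are shown because the largest differences (Nr2f1, Adgrv1) and the one shared start region (Polr3g with Mblac2) fall on them. Each is the 250 bases before the annotated start, from RefSeq, build GRCm38.p6, read 5′ to 3′ on the gene's strand. These stretches are chr13:78198874-78199123 (minus strand) for Nr2f1, chr13:81633145-81633394 (minus) for Adgrv1, chr13:81711014-81711263 (minus) for Polr3g and chr13:81711167-81711416 (plus) for Mblac2. Capitals mark CG dinucleotides in Nr2f1 and Adgrv1, and the 97 bases common to both stretches, on opposite strands, in Polr3g and Mblac2.
Nr2f1: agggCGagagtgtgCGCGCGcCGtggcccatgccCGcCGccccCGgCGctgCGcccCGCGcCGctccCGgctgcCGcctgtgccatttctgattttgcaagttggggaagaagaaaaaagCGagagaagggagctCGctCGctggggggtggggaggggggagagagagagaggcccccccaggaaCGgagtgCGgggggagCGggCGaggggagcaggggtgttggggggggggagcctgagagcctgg
Adgrv1: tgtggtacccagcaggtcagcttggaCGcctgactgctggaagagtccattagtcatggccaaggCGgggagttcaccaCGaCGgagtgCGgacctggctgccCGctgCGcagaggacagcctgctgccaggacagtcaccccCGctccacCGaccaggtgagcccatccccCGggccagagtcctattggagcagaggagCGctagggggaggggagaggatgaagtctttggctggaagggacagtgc
Polr3g: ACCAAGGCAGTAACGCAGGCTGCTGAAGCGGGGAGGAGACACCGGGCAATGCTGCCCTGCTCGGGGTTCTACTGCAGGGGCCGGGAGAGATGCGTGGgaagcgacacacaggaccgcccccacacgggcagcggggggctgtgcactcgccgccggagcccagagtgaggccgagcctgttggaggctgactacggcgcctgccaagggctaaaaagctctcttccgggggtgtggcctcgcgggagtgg
Mblac2: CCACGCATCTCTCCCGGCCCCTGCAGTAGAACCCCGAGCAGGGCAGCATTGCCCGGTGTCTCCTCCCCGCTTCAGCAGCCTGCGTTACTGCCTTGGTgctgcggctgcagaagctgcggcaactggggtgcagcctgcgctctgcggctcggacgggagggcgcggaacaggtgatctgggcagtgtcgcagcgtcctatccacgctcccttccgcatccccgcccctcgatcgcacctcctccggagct

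The Nr2f1 stretch shown, before the outermost of its 2 annotated starts, was 72% G and C with 22 CG dinucleotides. The stretch before the other start, chr13:78196450-78196699, was 39.6% with 2. That of Adgrv1 was 64.4% with 11, against medians of 52.4% and 6 over all 32851 promoter stretches in the table. Polr3g and Mblac2 point away from each other, with 403 bases between their annotated starts. The table held 11 stretches for 8 of the 10 neighbours, and 3 for Mef2c. Tmem161b and Ccnh are named only. The MEF2 consensus, searched on both strands, was in 0 of these 14 stretches and in 2.92% of all stretches, which says only that those letters are not in these windows.

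**Figure D1:**
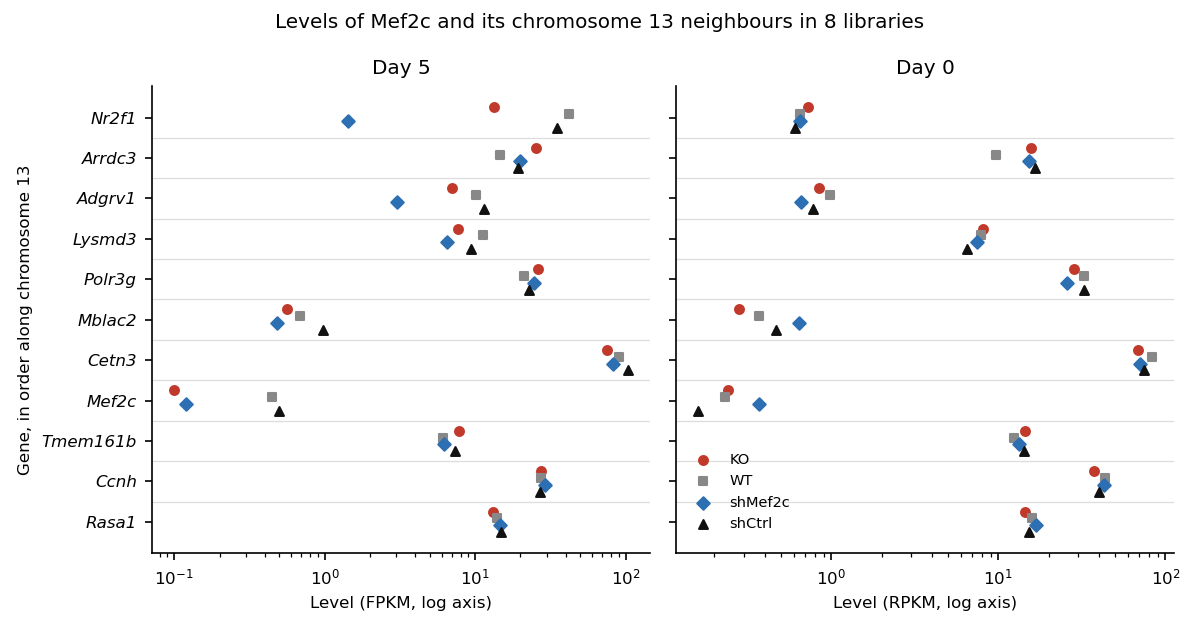
Levels of Mef2c and its 10 neighbours, in chromosomal order, in the 4 libraries of day 5 (left, FPKM) and of day 0 (right, RPKM), on log axes; each point is 1 library. At day 5 Nr2f1 spans 1.43 to 42.0 FPKM and Adgrv1 3.02 to 11.5 FPKM, while Ccnh and Rasa1 lie in narrow bands.

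At day 5, 1 of the 9 neighbours that entered the KO comparison was 2-fold or more lower than in WT and 0 were higher. The background was 7.31% of 12832 genes past 2-fold either way, and 3.26% lower, and with 9 genes 1 call is the smallest count above 0. In shMef2c against shCtrl 2 of 9 were lower and 0 higher, beside a background of 9.26% of 13041 genes either way and 4.78% lower. The gene past 2-fold in both was Nr2f1, and the other in the hairpin pair was Adgrv1. The neighbours' median log2 ratio was -0.08 in the KO pair and -0.20 in the hairpin pair, against 0.00 and -0.05 over all genes. In the control pair, shCtrl over WT, 0 of 9 passed 2-fold (background 0.996%), and the median was 0.11.

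Nr2f1 encodes COUP-TFI, an orphan nuclear receptor that patterns the neocortex and hindbrain. It was the neighbour that differed most. At day 5 it held 13.4 FPKM in KO (834 reads) and 42.0 FPKM in WT (2657 reads), a read-share ratio of 0.318 (0.294 to 0.344) and a log2 ratio of -1.58. In the hairpin pair it held 1.43 FPKM in shMef2c (90 reads) and 35.1 FPKM in shCtrl (2154 reads), a ratio of 0.0408 (0.0327 to 0.0504) and a log2 ratio of -3.89. Both perturbed libraries were below both controls, and the shMef2c library was the lowest by far. Only 104 of 12832 genes had a ratio as low in the KO pair, counting Nr2f1, and 10 of 13041 in the hairpin pair. Between the controls the Nr2f1 ratio was 0.837 (0.79 to 0.886), much nearer to 1. In these bulk libraries fewer cells of a type and less RNA per cell cannot be told apart. The authors' deposited tables list Nr2f1 with log2 ratios of -1.65 for KO against WT and -4.62 for shMef2c against shCtrl.

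At day 0 Nr2f1 was near silent in all lines, at 0.73 RPKM in KO (35 reads), 0.65 RPKM in WT (30 reads), 0.65 RPKM in the library labelled shMef2c (28.5 reads) and 0.61 RPKM in shCtrl (28 reads). The KO over WT read-share ratio was 1.20 (0.715 to 2.02). The ratio for the library labelled shMef2c over shCtrl was 1.00 (0.573 to 1.76). Neither interval reached the ratios of day 5. KO held 31.5 RPM at day 5 and 1.72 RPM at day 0, and WT 99.0 and 1.44 RPM. The shMef2c cells held 3.38 RPM at day 5 and 1.38 RPM at day 0, and shCtrl cells 82.9 and 1.35 RPM.

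Markers of cell state also differed between the day 5 libraries. Summed levels below cover all genes of a list, also those too low to enter a comparison. Of 16 neural progenitor markers, 8 were 2-fold or more lower and 1 higher in KO than in WT, with summed levels of 178 and 485 FPKM. In shMef2c 13 of the 16 were lower than in shCtrl, with sums of 93.6 and 549 FPKM. None of the 16 was at 0 in any day 5 library, and Pax6, a defining regulator of neural progenitors, held 8.15 FPKM in KO and 12 FPKM in WT, and 0.21 FPKM in shMef2c and 12.3 FPKM in shCtrl. Of 20 naive pluripotency genes 13 were higher in KO than in WT (sums 2480 and 1014 FPKM) and 19 in shMef2c than in shCtrl (sums 3058 and 725 FPKM). Of 14 neuron markers 5 were lower and 1 higher in KO than in WT (sums 310 and 343 FPKM), and 12 were lower in shMef2c than in shCtrl (sums 136 and 492 FPKM). Hindbrain patterning genes were lower in 6 of 11 cases in KO (sums 52.4 FPKM in KO and 171 FPKM in WT), and in 5 of 9 cases, with 1 higher, in shMef2c (sums 67.3 FPKM in shMef2c and 144 FPKM in shCtrl). Of 10 endoderm markers that entered the KO pair 7 were higher and 1 lower (sums 112 FPKM in KO and 43.6 FPKM in WT), while in the hairpin pair 0 of 6 were higher and 2 lower (sums 58.4 FPKM in shMef2c and 78.4 FPKM in shCtrl). Of 4 mesoderm markers that entered the KO pair 3 were lower and 0 higher (sums 5.12 FPKM in KO and 54 FPKM in WT), and in the hairpin pair 6 of 6 were higher (sums 167 FPKM in shMef2c and 50.1 FPKM in shCtrl). The part of these differences in cell state in the Nr2f1 values was not tested.

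The nearest relative of Nr2f1, Nr2f2 (COUP-TFII), lies on another chromosome. It held 5.47 FPKM in KO and 9.16 FPKM in WT, and 1.57 FPKM in shMef2c and 9.98 FPKM in shCtrl. Nr2f6 held 28.0 FPKM in KO and 57.6 FPKM in WT, and 30.9 FPKM in shMef2c and 54.1 FPKM in shCtrl. Of 5 Nr2 family genes that entered, 2 were past 2-fold lower in the KO pair (Nr2f1 and Nr2f6) and 2 in the hairpin pair (Nr2f1 and Nr2f2).

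The 5 genes whose pattern over all 8 libraries was most like that of Nr2f1, among 12167 genes, all lay on other chromosomes. Chromosome 13 held 438 of the 12832 genes in the KO comparison at day 5, so for 5 genes this says little about position. Likeness was the root mean square difference between log2(value + 1) profiles centred within each day. The 5 genes were Cyp26b1 (0.231), which encodes a retinoic acid hydroxylase, Pou3f3 (0.250), Insm1 (0.284), Pax6 (0.296) and Ednrb (0.304). Cyp26b1 held 4.87 FPKM in KO and 19.6 FPKM in WT, and 0.74 FPKM in shMef2c and 21.2 FPKM in shCtrl.

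**Figure D2:**
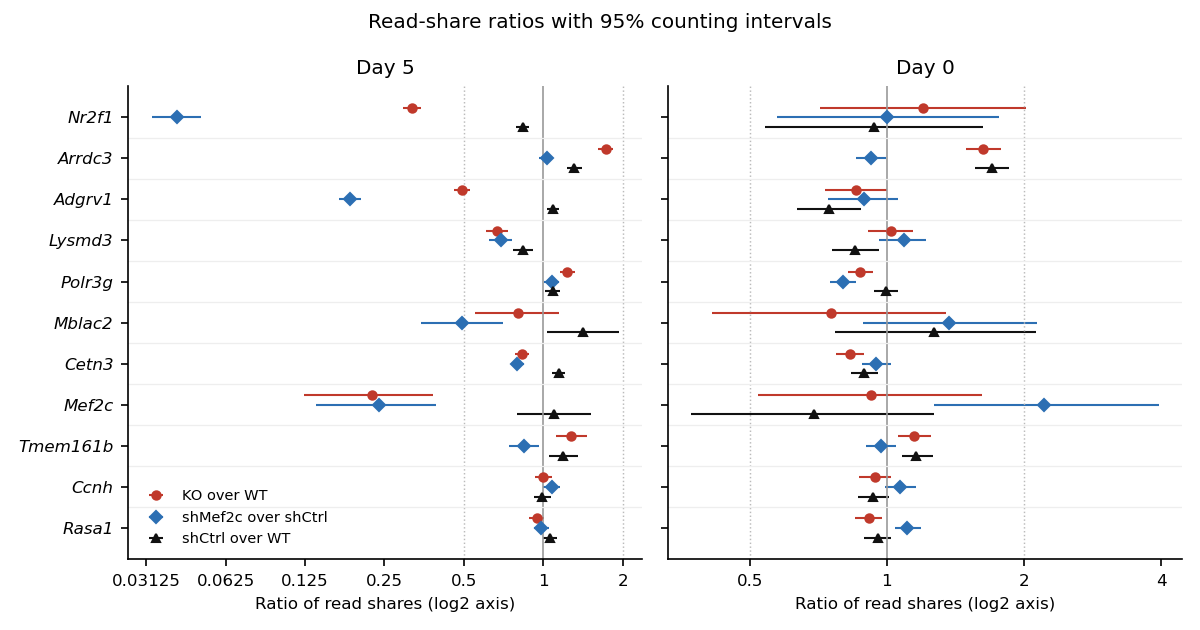
Read-share ratios of Mef2c and the 10 neighbours at day 5 (left) and day 0 (right) on log2 axes, for KO over WT, shMef2c over shCtrl and the control pair shCtrl over WT; bars are exact 95% counting intervals and dotted lines mark 2-fold. At day 5 Nr2f1 (0.318 and 0.0408) and Adgrv1 (0.492 and 0.185) lie furthest left of the neighbours, and at day 0 Arrdc3 stands at 1.63 in KO over WT and 1.70 in shCtrl over WT.

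Adgrv1 encodes a very large adhesion G protein-coupled receptor of hair cell and photoreceptor links, mutated in Usher syndrome. At day 5 it held 6.99 FPKM in KO (1226 reads) and 10.1 FPKM in WT (2522 reads). In the hairpin pair it held 3.02 FPKM in shMef2c (504 reads) and 11.5 FPKM in shCtrl (2654 reads). Both perturbed libraries were again below both controls, with shMef2c the lowest. For shMef2c over shCtrl the log2 ratio was -1.64 and the read-share ratio 0.185 (0.168 to 0.204). For KO over WT the log2 ratio of FPKM was -0.47, short of 2-fold, but the read-share ratio was 0.492 (0.46 to 0.527). The control pair had a read-share ratio of 1.09 (1.03 to 1.15).

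FPKM and reads part ways for Adgrv1 because FPKM divides by the mean length of the transcripts assigned to the gene, and that length differed between libraries. It was 6693 bases in KO and 9372 bases in WT, and 6330 bases in shMef2c and 8922 bases in shCtrl. The perturbed libraries thus had both fewer Adgrv1 reads and a shorter estimated mix of its transcripts. Whether the KO pair passed 2-fold turned on this choice of unit.

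**Figure D3:**
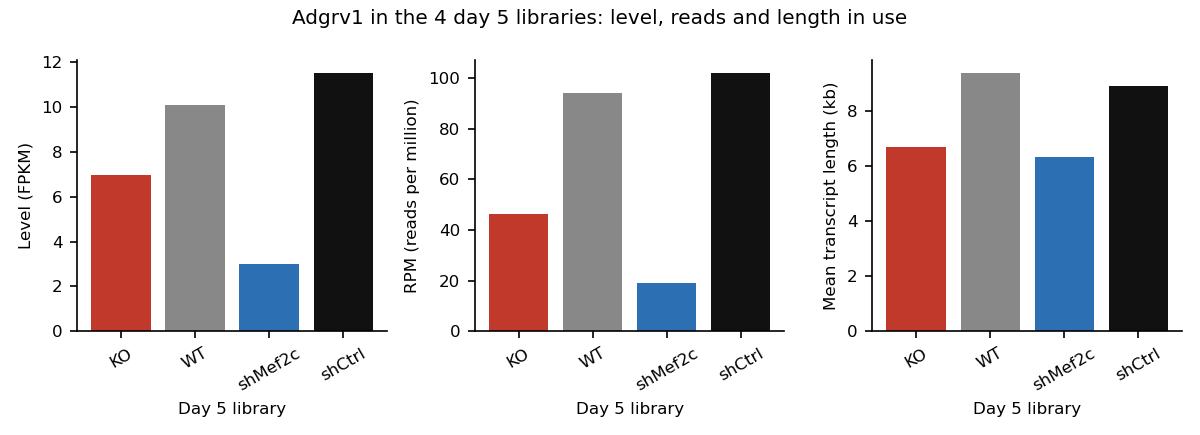
Adgrv1 in the 4 day 5 libraries, 1 bar per library: FPKM (left), RPM (centre) and mean transcript length in kb (right). KO holds 46.3 RPM and WT 94.0 RPM, and shMef2c 18.9 RPM and shCtrl 102 RPM, a wider gap in the KO pair than in FPKM, beside shorter lengths of 6.69 kb in KO and 9.37 kb in WT.

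At day 0 Adgrv1 was under 1 RPKM in every library, from 0.66 to 0.99 RPKM (233 to 354 reads), and its KO over WT ratio was 0.857 (0.732 to 1.00). Like Nr2f1 it was higher at day 5. It stood at 46.3 RPM at day 5 and 14.5 RPM at day 0 in KO, against 94.0 and 17 RPM in WT. In shMef2c it stood at 18.9 RPM at day 5 and 11.3 RPM at day 0, against 102 and 12.7 RPM in shCtrl.

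Whrn, which encodes a scaffold protein that binds Adgrv1 in hair cells, held 4.85 FPKM in KO and 7.88 FPKM in WT, and 4.53 FPKM in shMef2c and 7.19 FPKM in shCtrl. Of 6 genes that entered from a list of Usher proteins and related adhesion receptors, the one past 2-fold lower in the KO pair was Adgrb1, at 1.69 FPKM in KO and 7.45 FPKM in WT. In the hairpin pair 2 of 6 were lower, Adgrv1 and Adgrb1 (2.87 FPKM in shMef2c and 6.97 FPKM in shCtrl). The pattern most like that of Adgrv1 belonged to D1Ertd622e (0.077), Slc37a4 (0.093), Prmt8 (0.099), Gprin1 (0.109) and Tmub1 (0.109). Gprin1 also maps to chromosome 13, though outside the window described below.

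Arrdc3 encodes an alpha-arrestin, an adaptor that brings ubiquitin ligases to membrane receptors. At day 5 it held 25.3 FPKM in KO (2697 reads) and 14.6 FPKM in WT (1580 reads), a read-share ratio of 1.73 (1.62 to 1.84). The hairpin pair showed no such gap, with 19.8 FPKM in shMef2c and 19.2 FPKM in shCtrl, a ratio of 1.03 (0.968 to 1.09). At day 0 it held 15.7 RPKM in KO and 9.68 RPKM in WT, a ratio of 1.63 (1.49 to 1.78), and 15.2 RPKM in the library labelled shMef2c and 16.5 RPKM in shCtrl. WT was the lowest of the 4 libraries on both days, below the other control too. The shCtrl over WT ratio was 1.31 (1.23 to 1.40) at day 5 and 1.70 (1.56 to 1.85) at day 0. At day 0 the KO gap was no larger than the gap between controls, and at day 5 it was.

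Its relatives Arrdc4 and Txnip, alpha-arrestins known to respond to glucose, were also higher in KO than in WT at day 5. Arrdc4 held 18.6 FPKM in KO and 8.48 FPKM in WT, and 7.13 FPKM in shMef2c and 11.0 FPKM in shCtrl. Txnip held 41.6 FPKM in KO and 18.2 FPKM in WT, and 18.3 FPKM in shMef2c and 34.9 FPKM in shCtrl. Of 5 alpha-arrestins that entered, 2 were past 2-fold higher in KO than in WT, and 0 in shMef2c than in shCtrl. By the levels above, KO was less than 2-fold over the other control, shCtrl, for both Arrdc4 and Txnip. WT was below shCtrl for both genes at day 5, as it was for Arrdc3. At day 0 neither gene shared the WT low of Arrdc3. Txnip held 28.1 RPKM in KO and 30.3 RPKM in WT, and Arrdc4 14.3 RPKM in KO and 16.4 RPKM in WT.

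**Figure D4:**
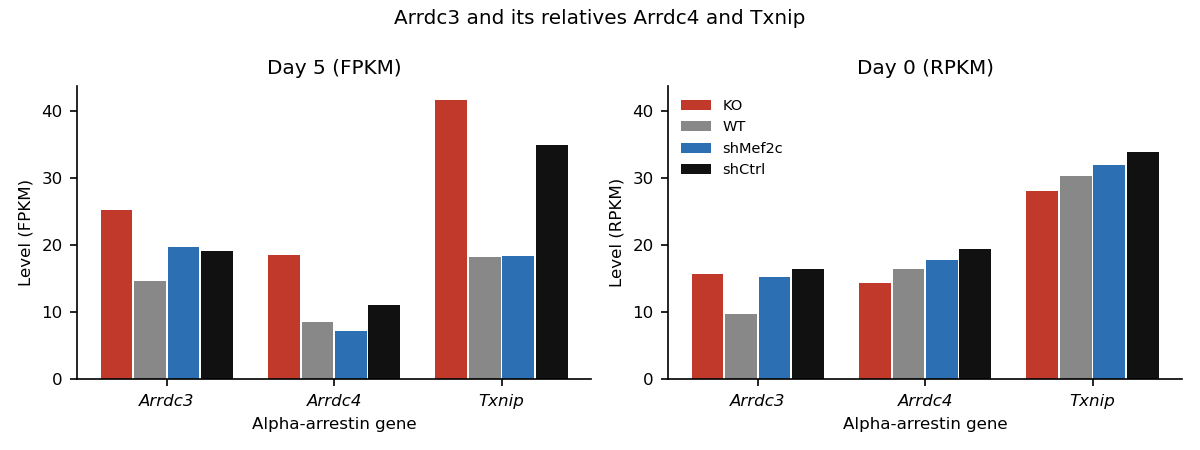
Levels of Arrdc3, Arrdc4 and Txnip at day 5 (left, FPKM) and day 0 (right, RPKM), 1 bar per library. At day 5 KO is the highest library for all 3 genes, with Txnip at 41.6 FPKM, and at day 0 WT is the lowest for Arrdc3 alone, at 9.68 RPKM.

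Lysmd3, which encodes a LysM-domain membrane protein, was lower in both perturbed libraries at day 5 by less than 2-fold. It held 7.64 FPKM in KO and 11.3 FPKM in WT, a read-share ratio of 0.668 (0.607 to 0.734). It held 6.49 FPKM in shMef2c and 9.45 FPKM in shCtrl, a ratio of 0.69 (0.622 to 0.764). Both gaps were wider than that between the controls, 0.836 for shCtrl over WT (0.765 to 0.914). At day 0 it held 8.05 RPKM in KO and 7.83 RPKM in WT, and 7.41 RPKM in the library labelled shMef2c and 6.52 RPKM in shCtrl. Of the 4 LysM domain genes, 0 passed 2-fold in either pair at day 5.

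Polr3g and Mblac2 share the start region printed above, yet did not show the same ratios at day 5. Polr3g encodes the form of an RNA polymerase III subunit that is abundant in stem cells. It held 26.0 FPKM in KO and 21.1 FPKM in WT, a read-share ratio of 1.23 (1.16 to 1.32), and 24.8 FPKM in shMef2c and 22.9 FPKM in shCtrl, a ratio of 1.08 (1.01 to 1.15). That hairpin-pair gap was the same size as that between the controls, 1.09 (1.02 to 1.16). At day 0 Polr3g held 28.4 RPKM in KO and 32.5 RPKM in WT, and 25.9 RPKM in the library labelled shMef2c and 32.4 RPKM in shCtrl, ratios of 0.875 (0.821 to 0.933) and 0.801 (0.75 to 0.855). By read share it stood at 77.6 RPM at day 5 and 87.4 RPM at day 0 in KO, against 62.9 and 99.9 RPM in WT. In shMef2c it stood at 74.0 RPM at day 5 and 79.9 RPM at day 0, against 68.4 and 99.7 RPM in shCtrl. The day 5 value was below the day 0 value in all 4 lines, most in the 2 controls.

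Its alternative, Polr3gl, was lower in the perturbed libraries at day 5, with 2.08 FPKM in KO and 3.42 FPKM in WT, and 2.48 FPKM in shMef2c and 5.35 FPKM in shCtrl. Neither gap reached 2-fold on the log2(value + 1) scale. Of 15 genes for polymerase III subunits and regulators 0 passed 2-fold in either pair.

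Mblac2, a metallo-beta-lactamase fold gene, was too low to enter any comparison. At day 5 it held 0.56 FPKM in KO (56 reads) and 0.69 FPKM in WT (71 reads), a ratio of 0.799 (0.553 to 1.15) that counting error alone spans. In the hairpin pair it held 0.48 FPKM in shMef2c (49 reads) and 0.98 FPKM in shCtrl (97 reads), a ratio of 0.493 (0.343 to 0.703). The controls themselves stood at a ratio of 1.41 for shCtrl over WT (1.03 to 1.94). The authors' deposited table for the hairpin pair lists Mblac2 with a log2 ratio of -1.03. That table held 2758 genes and 3 of the 10 neighbours (Nr2f1, Adgrv1 with -1.93, and Mblac2), while the deposited table for KO against WT held 2253 genes and only Nr2f1 of the 10.

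Cetn3, the measured neighbour next to Mef2c on one side, encodes a centrin of the centriole. It was the most abundant of the 10 at day 5, with 75.5 FPKM in KO and 90.6 FPKM in WT, and 82.5 FPKM in shMef2c and 103 FPKM in shCtrl. The read-share ratios were 0.831 (0.781 to 0.884) for KO over WT and 0.798 (0.752 to 0.846) for shMef2c over shCtrl, against 1.15 (1.08 to 1.21) for shCtrl over WT. Both perturbed libraries were below both controls, by little more than the controls differed. At day 0 it held 68.7 RPKM in KO and 82.8 RPKM in WT, a ratio of 0.829 (0.774 to 0.889), a gap of the same size as at day 5. The library labelled shMef2c held 70.5 RPKM and shCtrl 75.0 RPKM, a ratio of 0.947 (0.883 to 1.02), and shCtrl over WT was 0.892 (0.834 to 0.955). Set against shCtrl in place of WT, KO had a log2 ratio of -0.12. Its relative Cetn2 held 31.9 FPKM in KO and 44.7 FPKM in WT, and 41.3 FPKM in shMef2c and 44.6 FPKM in shCtrl.

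Tmem161b, on the other side of Mef2c, encodes a multi-pass membrane protein. It held 7.84 FPKM in KO and 6.14 FPKM in WT, a read-share ratio of 1.28 (1.12 to 1.46), and 6.22 FPKM in shMef2c and 7.32 FPKM in shCtrl, a ratio of 0.846 (0.742 to 0.965). The 2 perturbed libraries thus lay on opposite sides of their controls. The controls themselves stood at 1.19 for shCtrl over WT (1.05 to 1.36), a gap of similar size. Every line held less Tmem161b at day 5 than at day 0. It stood at 20.3 RPM at day 5 and 63.7 RPM at day 0 in KO, against 15.9 and 55.4 RPM in WT. In shMef2c it stood at 16.1 RPM at day 5 and 62.7 RPM at day 0, against 19 and 64.5 RPM in shCtrl. The day tables were made separately, and on the length-normalised scale the same step was smaller, a centred log2 ratio between -0.96 and -0.83.

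Ccnh and Rasa1 lie tail to tail, and their annotated ends overlap in GENCODE M21. The sources used here do not give whether the counting used strand, and reads from the overlap cannot be assigned with certainty. Ccnh encodes cyclin H of the CDK-activating kinase, part of the general transcription factor TFIIH. It held 27.4 FPKM in KO and 27.2 FPKM in WT, a ratio of 1.00 (0.932 to 1.08), and 28.9 FPKM in shMef2c and 26.9 FPKM in shCtrl, a ratio of 1.08 (0.998 to 1.16). At day 0 it held 37.6 RPKM in KO and 43.7 RPKM in WT, and 43.0 RPKM in the library labelled shMef2c and 40.1 RPKM in shCtrl. Its kinase partner Cdk7 held 15.2 FPKM in KO and 14.9 FPKM in WT, and of 10 genes of this kinase and TFIIH 0 passed 2-fold in either pair.

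Rasa1 encodes p120 RasGAP, which switches Ras off. It held 13.2 FPKM in KO and 14.0 FPKM in WT, a ratio of 0.944 (0.884 to 1.01), and 14.6 FPKM in shMef2c and 14.8 FPKM in shCtrl, a ratio of 0.985 (0.925 to 1.05). Both intervals held 1, and neither came near 2-fold. At day 0 it held 14.5 RPKM in KO and 15.8 RPKM in WT, and 16.8 RPKM in the library labelled shMef2c and 15.2 RPKM in shCtrl.

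At day 0, 7 of the 10 neighbours entered and 0 were past 2-fold in either pair or between the controls (1.27% of all genes for shCtrl over WT). The background was 2.93% of 12002 genes for KO over WT and 0.231% of 12103 for the library labelled shMef2c over shCtrl. Feeder fibroblast markers were higher in the library labelled shMef2c, with a summed level of 380 RPKM against 232 RPKM in shCtrl, and 212 RPKM in KO against 227 RPKM in WT. All 12 of these markers entered both day 0 pairs, 0 were past 2-fold, and none was at 0. Their part in the day 0 values was not tested.

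Set against day 0 of the same line, on the log2(value + 1) scale centred on the median gene, Nr2f1 and Adgrv1 were the neighbours that came up. In KO, 2 of the 9 neighbours that entered were 2-fold or more higher at day 5 and 0 lower (background 10.1% higher and 9.79% lower). The same 2 of 9 were higher in WT, where 15.3% of genes were higher and 14.7% lower. In shMef2c only Adgrv1 was higher, 1 of 9 (background 9.37% higher and 9.50% lower), while Nr2f1 had a centred log2 ratio of 0.60. By read share the shMef2c steps were 1.68-fold for Adgrv1 and 2.46-fold for Nr2f1. Which of them passed 2-fold in shMef2c thus turned on the scale. For Adgrv1 the transcript length behind the level also did not match between the days. In shMef2c, 18.9 RPM went with 3.02 FPKM at day 5, but 11.3 RPM with 0.66 RPKM at day 0. By read share its steps in the other lines were 3.19-fold in KO, 5.54-fold in WT and 8.06-fold in shCtrl. On the centred scale Nr2f1 and Adgrv1 were both higher in shCtrl, 2 of 9, beside 15.3% of genes higher and 15.3% lower. These ratios use the same day 5 libraries as the comparisons above. For Nr2f1 the centred log2 ratios in the other lines were 3.04 in KO, 4.69 in WT and 4.41 in shCtrl, and for Adgrv1 they were 2.10 in KO, 2.46 in WT, 1.31 in shMef2c and 2.74 in shCtrl. Tmem161b, not counted as lower on this scale, fell by 3.13-fold to 3.9-fold by read share.

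Among the 10 neighbours, distance in gene order did not rank the day 5 differences. Between Nr2f1 and Mef2c lie 6 other members, of which Arrdc3 was higher in KO and Polr3g slightly higher. The others, Adgrv1, Lysmd3, Mblac2 and Cetn3, were lower in both pairs, though the KO interval of Mblac2 held 1. The nearest neighbours on each side, Cetn3 and Tmem161b, stood no more than 1.28-fold from their controls. Of the 10 read-share intervals, 6 lay below 1 and 1 above in the hairpin pair. In the KO pair 4 lay below and 3 above, and in shCtrl over WT 2 below and 6 above. Rasa1 and Ccnh, on the far side, were level. A window reaching 20 annotated genes beyond the outermost members held 104 genes, of which 24 were measured on either day, 13 of them neither members nor Mef2c. In the KO pair 1 of 14 window genes that entered was past 2-fold lower and 0 higher (7.14%, beside 7.31% of all genes and 4.79% of 438 on chromosome 13). In the hairpin pair 3 of 14 were lower and 0 higher (21.4%, beside 9.26% of all genes and 8.37% of 442 on chromosome 13). The median log2 ratio of the window genes that entered was -0.14 in the KO pair and -0.27 in the hairpin pair. Over all genes it was 0.00 and -0.05. For the 5 that were neither members nor Mef2c it was -0.15 and -0.35. In shCtrl over WT the window median was 0.10. At day 0 the KO pair had 0 of 12 window genes past 2-fold. The library labelled shMef2c had 1 of 12 lower than in shCtrl and 0 higher (8.33%, beside 0.231% of all genes and 0.668% of 449 on chromosome 13). That gene was Cox7c, the measured gene next to Rasa1, which encodes a cytochrome c oxidase subunit and is named after its values were seen. At day 0 it held 254 RPKM in the library labelled shMef2c and 513 RPKM in shCtrl, a read-share ratio of 0.495 (0.471 to 0.521), and 540 RPKM in KO and 364 RPKM in WT, a ratio of 1.48 (1.42 to 1.55). At day 5 it held 467 FPKM in shMef2c and 702 FPKM in shCtrl, and 712 FPKM in KO and 669 FPKM in WT.

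The third gene of the hairpin pair was Fam172a, beyond Nr2f1, with 3.94 FPKM in shMef2c and 9.01 FPKM in shCtrl, a log2 ratio of -1.02. In the KO pair it held 4.78 FPKM in KO and 7.25 FPKM in WT. The shMef2c level was less than 2-fold below that of WT, so the call of Fam172a rested on shCtrl as the reference. Edil3, named after its values were seen, was too low to enter either pair. It had 42 reads in shMef2c and 215 in shCtrl, a read-share ratio of 0.191 (0.134 to 0.267). In KO it had 62 reads and in WT 117, a ratio of 0.537 (0.388 to 0.736). Mctp1 and Hapln1, named on the same ground, were also lower in both pairs, on 5 to 57 reads each. Cox7c stood at 1.06 (1.02 to 1.09) in KO over WT. Vcan, at the other end of the window and named after its values were seen, held 17.6 FPKM in KO and 34.4 FPKM in WT, but 26.6 FPKM in shMef2c and 29.6 FPKM in shCtrl. The long non-coding genes listed beside Mef2c and Nr2f1 were close to the limit of detection. C130071C03Rik, also named after its values were seen, had 1 read in KO and 11 in WT, and 0 in shMef2c and 3 in shCtrl, where a count of 0 allows up to 3 reads. Its read-share ratio in KO over WT was 0.0921 (0.00214 to 0.634). The next gene, 2810049E08Rik, named on the same ground, had 0 reads in KO and 2 in WT, and 0 in shMef2c and 8 in shCtrl, where the interval of the ratio ran from 0 to 0.572. In KO over WT the interval of 2810049E08Rik, from 0 to 5.39, held 1. A830082K12Rik, also named after its values were seen, overlaps Nr2f1 on the opposite strand in GENCODE M21. It had 3 reads in KO and 4 in WT, and 2 in shMef2c and 9 in shCtrl.

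**Figure D5:**
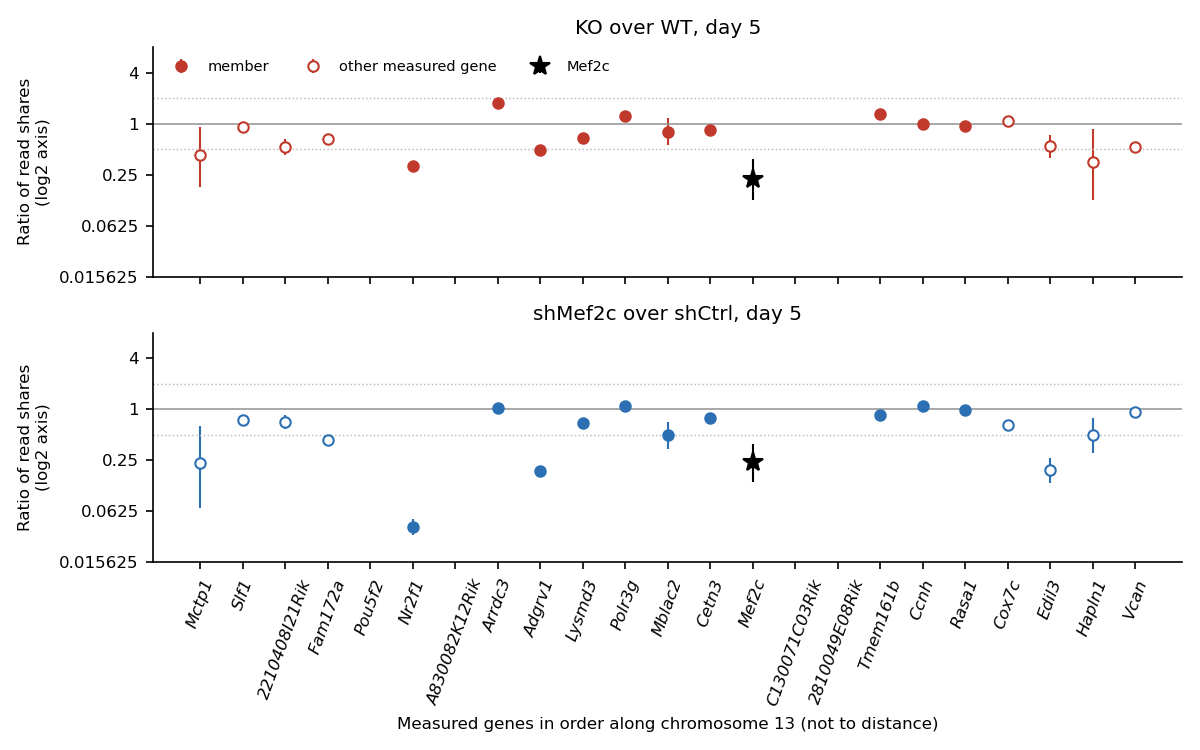
Read-share ratios at day 5 for KO over WT (top) and shMef2c over shCtrl (bottom) of the measured window genes in chromosomal order, equally spaced and not to distance; filled points are the 10 neighbours, open points other genes, the star Mef2c, and bars exact 95% counting intervals. Genes with fewer than 20 reads over a pair have no point; this leaves out the 2 long non-coding genes next to Mef2c, whose few reads are given in the text. Of the points drawn, Nr2f1 at 0.0408 in the lower panel is the lowest of the neighbours.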

How the data were processed

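The authors deposited FPKM and estimated counts per gene at day 5, per the file headers, and RPKM and estimated counts at day 0. Build mm9 and, among tools, RSEM, HISAT, HISAT2, Bowtie and Bowtie2 stand in the submitters' processing notes. The authors' deposited day 5 tables of differences give log2 ratios and FDR-adjusted p-values from a Poisson method per the labels; these compare single libraries, not conditions. Genes were joined by gene ID, and a gene not listed at day 5 was taken as 0. Log2 ratios used FPKM or RPKM plus a pseudocount of 1 for genes with a pair mean of 1 or more. Day 5 over day 0 ratios had the median ratio subtracted. Read-share ratios and exact (Clopper-Pearson) 95% intervals used the estimated counts. Estimated counts were rounded for edgeR 4.0.16 (TMM factors) and DESeq2 1.42.0 (size factors), used as scalings only. Gene order and names came from RefSeq (GRCm38.p6) and overlaps from GENCODE M21, with no coordinates carried to mm9.

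Members, Mef2c and gene lists were chosen with earlier results of these data known. Named outside them were window genes past 2-fold at day 5 and, for each member past 2-fold at day 5, the 5 genes of most similar profile; others are marked as named after their values were seen.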

Additional observations from a re-analysis of the deposited data

Results flagged for a closer look

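For 6 pairs of read-share ratios, each from 1 library over its control, the counting intervals lay on opposite sides of 1. No difference between the ratios was tested, since no group has a replicate. Polr3g stood at 1.23 in KO over WT at day 5 and 0.875 at day 0, and at 1.08 in shMef2c over shCtrl at day 5 and 0.801 at day 0. Mef2c stood at 0.238 in shMef2c over shCtrl at day 5 and 2.21 at day 0, where the library went against its label. Tmem161b stood at 1.28 in KO over WT and 0.846 in shMef2c over shCtrl at day 5. Arrdc3 stood at 1.63 in KO over WT and 0.923 in shMef2c over shCtrl at day 0, and Rasa1 at 0.912 in KO over WT and 1.11 in shMef2c over shCtrl at day 0. With the other control library the log2 ratios of Arrdc3 at day 0 and of Tmem161b in shMef2c at day 5 changed sign.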

How the results depend on the processing

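The 1 member called in the KO pair at day 5 became 2 with estimated counts scaled by TMM or DESeq2 factors or, chosen after seeing the data, with read shares and no pseudocount or filter, each time by adding Adgrv1. It became 2 at a fold of 1.5, by adding Arrdc3, and 0 at a fold of 4. The 2 called in the hairpin pair at day 5 became 1 (Nr2f1) at a fold of 4, and at day 0 the KO count of 0 became 1 (Arrdc3) at a fold of 1.5. Read shares also took the hairpin count at day 5 to 3, by adding Mblac2. Other counts kept within 1.5 times under the alternatives run. Of 314 single-gene ratios under alternatives, 266 moved by less than their counting interval, 48 by more and 0 called ones changed sign. Uncalled log2 ratios did change sign. With the other control library, Arrdc3 at day 0 was -0.06 instead of 0.65 in KO and 0.60 instead of -0.11 in the library labelled shMef2c, and Tmem161b in shMef2c at day 5 was 0.02 instead of -0.20. The other sign changes under any setting were in ratios within 0.16 of 0. Nr2f1 ranged from -1.65 to -1.33 in the KO pair and -4.62 to -3.85 in the hairpin pair, and Adgrv1 from -1.02 to -0.45 and -2.43 to -1.46. Causes were not tested beyond the transcript length given for Adgrv1. No paired analysis was possible because each group has 1 library, and for the same reason no replicate could be left out. Under 100 reads, as for Mef2c and Mblac2, counting error alone spans a wide range.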
